A study of Mus musculus with 6 samples.

Results

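Genes that regulate or carry out the oxidative and amino-acid stress responses were described in maps of NUP214 on mouse chromatin. They are the transcription factor genes Nfe2l2, Atf4, Ddit3 and Bach1, the NRF2 inhibitor gene Keap1, and the effector genes Nqo1, Hmox1 and Chac1, taken by name as a fixed list of 8 of the 21887 protein-coding genes of the annotation. NUP214 is a nucleoporin of the cytoplasmic face of the nuclear pore, and CUT&Tag places sequencing adapters on the DNA near an antibody-bound protein by a tethered transposase. The material was sorted mouse bone marrow. Control leukemia stem cells (control LSCs) were lineage-negative, Sca-1-negative cells positive for c-Kit, CD34 and CD16/32, and their Nup214fl/+ hosts had acute myeloid leukemia induced by the fusion oncogene MLL-AF9. Nup214-HET LSCs passed the same gate and came from leukemic mice of genotype Nup214fl/+,Tie2-Cre, whose recombinase is driven by a promoter active in endothelial and blood cells. The HSC group held CD48-CD150+LSK hematopoietic stem cells, also Nup214fl/+, for which no leukemia is named. The Nup214fl/+ genotype is thus common to all 3 groups, and Tie2-Cre is present in Nup214-HET LSCs alone. Each group had 2 libraries, called control, HET and HSC libraries 1 and 2 from here on, and the labels do not say whether they came from separate animals, so p-values measure only the spread between libraries. No library is labelled as a control without the antibody, so cutting unrelated to NUP214 was not measured.

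NRF2, the product of Nfe2l2, is held low by KEAP1, an adaptor that presents it to the CUL3 ubiquitin ligase for degradation. Oxidants and electrophiles release it, and with small MAF proteins it binds antioxidant response elements and activates genes such as Nqo1 and Hmox1, while BACH1, a repressor that responds to heme, competes for the same elements. ATF4 is made when phosphorylation of the initiation factor eIF2 slows general translation, for example on amino-acid shortage. It binds C/EBP-ATF response elements, and its targets include Ddit3, which encodes the stress factor CHOP, and Chac1, which encodes an enzyme that breaks down glutathione. The study's title names ferroptosis, a cell death driven by iron and lipid peroxidation, and both pathways act on glutathione and iron.

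Windows around the annotated starts of 6 of these genes are shown because the peaks described next lie on them. Each runs from 250 bases before to 50 bases after the start, 5′ to 3′ on the gene's own strand, from RefSeq on GRCm38.p6 (the mm10 build). RefSeq windows were matched for 7 of the 8 genes, and Hmox1 is the other one. Capitals mark 4 motifs searched on both strands: the antioxidant response element core TGACNNNGC, the C/EBP-ATF response element TGATGNAA, the GC box GGGCGG and the CCAAT box. The first 3 windows belong to the genes with a peak in all 4 LSC libraries, the next 2 to those with a peak in both control libraries alone, and the last to an ATF4 target with a peak in 1 library.
Nfe2l2, chr2:75704614-75704913, minus strand: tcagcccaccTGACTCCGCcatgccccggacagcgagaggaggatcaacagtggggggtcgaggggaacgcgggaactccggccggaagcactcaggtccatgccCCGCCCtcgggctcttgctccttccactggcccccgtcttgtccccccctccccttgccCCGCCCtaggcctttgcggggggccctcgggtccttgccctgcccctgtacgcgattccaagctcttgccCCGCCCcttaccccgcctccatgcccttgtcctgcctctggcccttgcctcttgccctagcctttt
Atf4, chr15:80254934-80255233, plus strand: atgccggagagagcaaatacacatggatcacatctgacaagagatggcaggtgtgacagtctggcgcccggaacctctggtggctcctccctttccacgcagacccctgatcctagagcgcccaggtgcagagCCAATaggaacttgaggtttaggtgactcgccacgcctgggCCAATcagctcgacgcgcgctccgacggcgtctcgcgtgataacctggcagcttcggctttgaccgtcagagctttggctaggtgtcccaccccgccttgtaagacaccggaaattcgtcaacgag
Ddit3, chr10:127290543-127290842, plus strand: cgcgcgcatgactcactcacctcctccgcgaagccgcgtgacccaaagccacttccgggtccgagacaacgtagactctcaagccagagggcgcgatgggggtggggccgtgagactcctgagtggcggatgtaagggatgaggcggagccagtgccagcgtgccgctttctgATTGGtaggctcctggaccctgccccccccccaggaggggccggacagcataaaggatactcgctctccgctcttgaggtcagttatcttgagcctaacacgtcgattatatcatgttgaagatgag
Bach1, chr16:87698704-87699003, plus strand: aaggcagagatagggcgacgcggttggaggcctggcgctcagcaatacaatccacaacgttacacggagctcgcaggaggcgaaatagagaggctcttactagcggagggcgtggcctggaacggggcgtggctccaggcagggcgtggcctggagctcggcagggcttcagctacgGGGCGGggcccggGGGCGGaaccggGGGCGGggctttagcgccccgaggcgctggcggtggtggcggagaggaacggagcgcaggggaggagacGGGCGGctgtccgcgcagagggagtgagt
Nqo1, chr8:107403156-107403455, minus strand: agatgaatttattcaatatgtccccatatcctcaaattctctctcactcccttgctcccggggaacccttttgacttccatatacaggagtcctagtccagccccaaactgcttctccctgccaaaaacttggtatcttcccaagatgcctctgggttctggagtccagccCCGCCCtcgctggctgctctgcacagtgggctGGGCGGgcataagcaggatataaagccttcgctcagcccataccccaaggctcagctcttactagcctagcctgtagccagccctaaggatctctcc
Chac1, chr2:119350992-119351291, plus strand: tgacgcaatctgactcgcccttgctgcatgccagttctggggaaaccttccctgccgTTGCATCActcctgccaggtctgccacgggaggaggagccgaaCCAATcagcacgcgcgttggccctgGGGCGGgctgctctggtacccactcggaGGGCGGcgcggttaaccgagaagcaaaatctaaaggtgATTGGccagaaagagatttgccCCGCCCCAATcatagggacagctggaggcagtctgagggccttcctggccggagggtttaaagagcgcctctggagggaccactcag

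Counting the start as 0, the antioxidant element in the Nfe2l2 window lies 240 to 232 bases before it, and the C/EBP-ATF element of Chac1 lies 193 to 186 bases before it. These were the only matches to either element among the 7 windows. Over all 32851 promoter windows of the table, 12.4% held the antioxidant element and 3.97% the C/EBP-ATF element. GC boxes were found in 5 of the 7 windows (Nfe2l2, Keap1, Bach1, Nqo1 and Chac1), against 35.7% of all windows, and CCAAT boxes in 3 (Atf4, Ddit3 and Chac1), against 37.4%. In Chac1 a GC box and a CCAAT box share 1 base, 32 bases before the start. A match describes letters only, and binding of any factor was not measured.

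The deposited lists held 25437 and 10525 peaks in the control libraries, 5452 and 4681 in the HET libraries, and 1045 and 634 in HSCs, on chromosomes 1 to 19, X and Y. The number of reads per library is not given in the sources used here. A relative depth implied by the lists (the lowest background over the smallest peak width) was 0.269 in control library 2, 0.476 and 0.462 in the HET libraries, and 1.32 and 0.525 in HSCs, relative to control library 1. List length thus differed between libraries, and a missing peak says that the caller's threshold was not passed. Of the marker genes examined, none of the 4 of the LSC gate, 6 of the HSC gate, 4 of the MLL-AF9 program, 7 of erythroid cells or 5 of B cells had a peak within 1 kb of an end in both libraries of any group. Among 6 T and NK cell genes Cd3d had one in all 4 LSC libraries, and among 6 endothelial and stromal genes Kdr had one in both control libraries. Of all protein-coding genes, 21.3% had one in both control libraries, 6.76% in both HET libraries and 0.0411% in both HSC libraries. The share for all 4 LSC libraries was 5.82%. Taken singly, control library 1 called 2, 2, 1, 1, 1, 3 and 1 genes of these lists in the order given, against 43.3% of all genes. HET library 1 also called Meis1 of the MLL-AF9 program. A peak does not measure expression, so the cell type labels, which read as hematopoietic stem cell for all 6 libraries, were not checked by these counts.

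NUP214 peaks lay at an end of all 8 stress genes in control library 1, of 5 in control library 2, of 3 in each HET library, and of none in either HSC library. The genes with a peak in all 4 LSC libraries were Nfe2l2, Atf4 and Ddit3. Bach1 and Nqo1 had one in both control libraries alone, and Keap1, Hmox1 and Chac1 in control library 1 alone. A gene counted when a peak overlapped, by at least 1 bp, the 1 kb on either side of an annotated gene end (a gene-end peak). By that rule 43.3% and 21.9% of all protein-coding genes were called in control libraries 1 and 2, 11.5% and 9.49% in the HET libraries, and 1.04% and 0.0868% in HSCs. Both control libraries called 5 of the 8 stress genes and 21.3% of all genes, and both HET libraries called 3 of the 8 and 6.76%. All 4 LSC libraries called 5.82% of genes. The absence of calls in HSCs is what nearly every gene showed, since both HSC libraries called 0.0411% of genes.

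**Figure D1:**
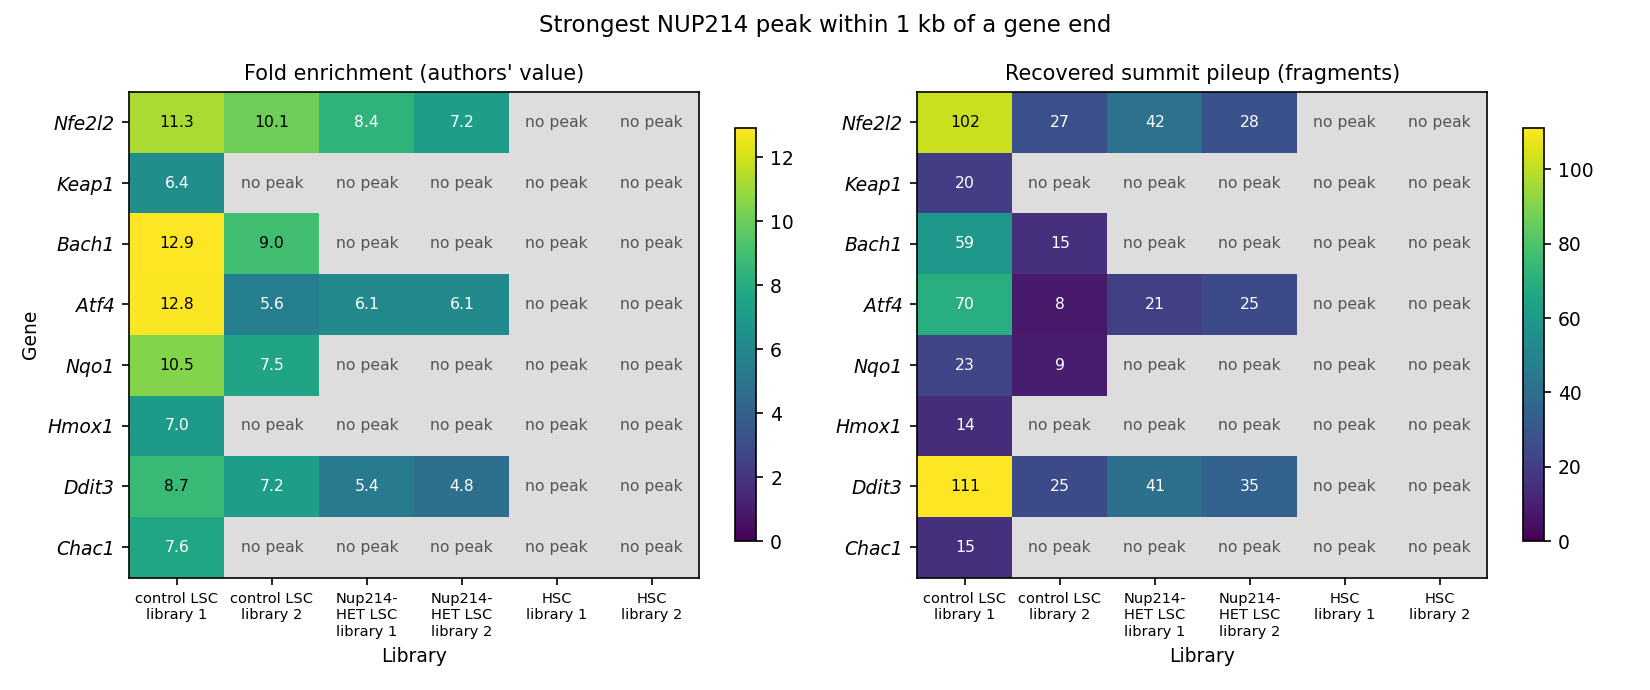
Strongest peak within 1 kb of an end of each stress gene (rows) in each library (columns), as the authors' fold enrichment (left) and the recovered number of fragments at the summit (right); grey cells had no such peak. In each panel the first column is filled for all 8 genes, the Nfe2l2, Atf4 and Ddit3 rows are filled in the 4 LSC libraries, and both HSC columns are empty.

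Among the transcription factors, Nfe2l2 (chromosome 2, 75675513 to 75704663, minus strand) had a peak across its start in all 4 LSC libraries. Fold enrichment is the authors' ratio of summit signal to local background, taken here as having 1 added to each part. The added 1 lowers the fold most where the background is low, so folds are read within a list. For Nfe2l2 the fold was 11.3 and 10.1 in the control libraries and 8.38 and 7.22 in the HET libraries. Within their own lists these folds ranked 3324 of 25437, 1048 of 10525, 426 of 5452 and 632 of 4681. The stretch from 75704503 to 75704797, 295 bp over the start, was inside the peak of each of the 4 libraries. The number of fragments at the summit, recovered from each peak's fold and p-value, was 102 and 27 in the control libraries and 42 and 28 in the HET libraries. Summits lay 19 and 7 bp inside the gene in the control libraries, and 123 and 183 bp inside it in the HET libraries. The peaks measured 1210 and 484 bp in the control libraries and 1033 and 927 bp in the HET libraries. By −log10 q, Nfe2l2 had ranks of 473, 584, 208 and 412 in the same order, and it was the 1 stress gene called in both control libraries when each list was cut to its strongest 634 peaks by q.

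Atf4 (chromosome 15, 80255184 to 80257545, plus strand) was called in the same 4 libraries. Its fold was 12.8 and 5.59 in the control libraries and 6.09 and 6.12 in the HET libraries, and the summits held 70, 8, 21 and 25 fragments. The ranks by fold were 2054 of 25437, 5382 of 10525, 1577 of 5452 and 1228 of 4681. The peak of control library 2 was near the middle of its list. Both control summits lay 77 bp before the start, next to the CCAAT box that runs from 76 to 72 bases before it. Those of the HET libraries lay 117 bp before the start and 263 bp inside the gene. The 4 peaks shared 472 bp, from 80255037 to 80255508.

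Ddit3 (chromosome 10, 127290793 to 127296291, plus strand) encodes CHOP, a factor of prolonged stress. It starts head to head with Mbd6, a methyl-CpG-binding domain gene on the minus strand, and the annotated spans overlap by 77 bp, so the gene-end peak of Ddit3 is that of Mbd6 as well. The fold was 8.70 and 7.20 in the control libraries and 5.36 and 4.77 in the HET libraries, with 111, 25, 41 and 35 fragments at the summit. Of the 8 genes, it had the highest fragment number in control library 1 but a fold rank of 6908, with a local background of 11.9 fragments there. The summits lay 143, 147, 147 and 101 bp before the start, within 46 bp of each other. Both control libraries held another peak inside Mbd6, with summits 1391 and 1427 bp before the Ddit3 start and 88 and 24 fragments. In the HET libraries 1 peak of 1676 and 1857 bp ran over both positions, against 663 and 444 bp in the control libraries. Peaks of the HET lists were wider in general, with median widths of 435 and 454 bp against 274 and 212 bp in the control lists.

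Bach1 (chromosome 16, 87698954 to 87733346, plus strand), the gene of the repressor, had the highest fold of the 8 in control library 1. Its fold was 12.9 there, rank 1998 of 25437, and 9.02 in control library 2, rank 1532 of 10525. The summits held 59 and 15 fragments and lay 135 and 173 bp before the start. Of its 4 GC boxes, 3 lie 73 to 43 bases before the start, between these summits and the start. Weaker peaks stood on either side in control library 1, with summits 849 bp before and 1041 bp after the start and folds of 3.21 and 4.23. None of the other 4 libraries held a peak in Bach1 or within 50 kb of it.

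Keap1 (chromosome 9, 21229730 to 21239332, minus strand) had a gene-end peak in control library 1 alone, from 21239158 to 21239365. Its fold was 6.44, rank 12924 of 25437 and the lowest of the 8 there, with 20 fragments at a summit 122 bp inside the gene. The peak covered 83 of the 300 bases of the start window.

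The effector genes were called in the control libraries alone. Nqo1, which encodes a quinone reductase (chromosome 8, 107388225 to 107403205, minus strand), had folds of 10.5 and 7.52 in the control libraries, ranks 4158 of 25437 and 2728 of 10525. The summits held 23 and 9 fragments over local backgrounds of 1.29 and 0.330, and lay 57 and 16 bp before the start. The peaks shared 199 bp, from 107403181 to 107403379. Hmox1, which encodes the heme-degrading enzyme that frees iron (chromosome 8, 75093618 to 75100593), had a peak in control library 1 at its lower-coordinate end, from 75093493 to 75093729. The fold was 7.03, rank 11011 of 25437, and the summit, 11 bp from that end, held 14 fragments. Chac1 (chromosome 2, 119351242 to 119354326, plus strand) had a peak in the same library from 119351061 to 119351330, with a fold of 7.63, rank 9316, and 15 fragments at a summit 13 bp before the start. Its C/EBP-ATF element lies just outside that peak, which covered 231 of the 300 bases of the window.

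**Figure D2:**
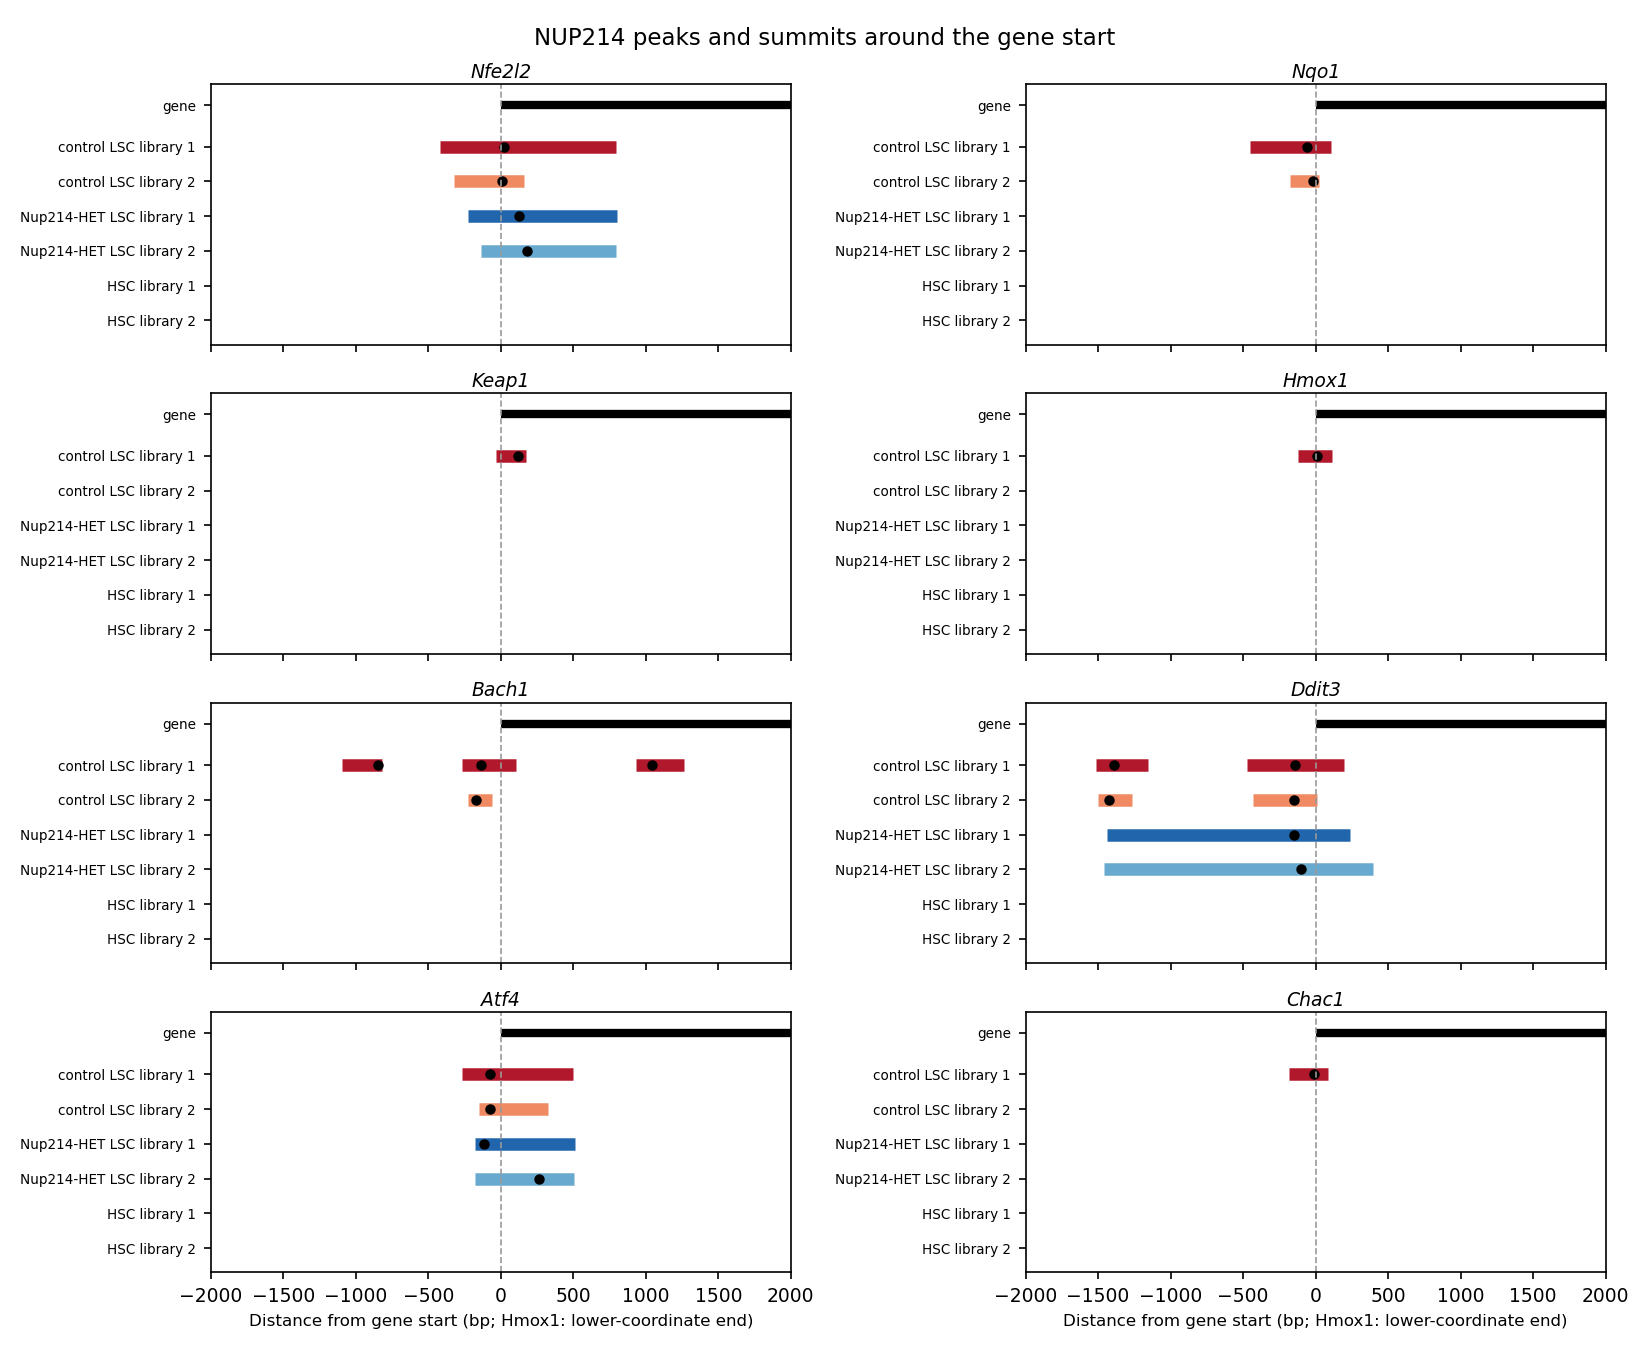
Peaks (bars) and summits (black points) within 2000 bp of the start of each stress gene, by library; the x axis is the distance from the gene start in bp along the direction of transcription (for Hmox1, from its lower-coordinate end along the chromosome), and the black bar is the gene. The strongest summits lie within 263 bp of the start, and the Ddit3 peaks of the HET libraries run over the positions of a pair of separate control peaks. By median width, peaks of the HET lists were wider than those of the control lists.

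The gene-end peaks stood at the start side. For the 7 genes with a known start, the strongest gene-end peak of each library, 18 in all, had its summit 7 to 263 bp from the start, with a median of 119.5 bp. Of these summits, 12 lay before the start and 6 after it, and no gene-end peak lay at the other end of any of the 7 genes. The same held for most genes: of 15328 genes over 2 kb with a known strand, those with a gene-end peak had it at the start side alone in 90.4% and 93.0% of cases in the control libraries and in 93.4% and 92.7% in the HET libraries.

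The genotype comparison asked which of these peaks of the control libraries were also called in the HET libraries. Bach1 and Nqo1 were called in 2 of 2 control libraries and 0 of 2 HET libraries, where the two-sided exact permutation test over the 4 libraries gave p = 0.33, the smallest that 2 against 2 libraries allow. Keap1, Hmox1 and Chac1 were called in 1 against 0 libraries and Nfe2l2, Atf4 and Ddit3 in 2 against 2 (exact permutation p = 1 each). The 5 genes with more control than HET calls compare with 35.0% of all protein-coding genes, and 0 of the 8 had fewer, against 1.51%. The share with a gene-end peak in both control libraries and neither HET library was 10.8% of all genes, and held 2 of the 8. Of the genes called in both control libraries, 50.7% were called in neither HET library, as were 2 of the 5 stress genes among them. Without control library 1 the genes with more control calls were 2, Bach1 and Nqo1, against 16.1% of all genes. Without control library 2 those with a control peak and none in the HET libraries were 5, against 29.8%. With each list cut to its strongest 634 peaks, 0 of the 8 had more control calls, against 2.00% of all genes. Ddit3, called in 1 control and 2 HET libraries, had fewer. The share of all genes with fewer control calls in the cut lists is not given here, so no reading is attached to that gene.

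The implied depth differed between libraries and was 1.77 and 1.72 times that of control library 2 in the HET libraries, which had fewer calls. Multiplied by the implied depth of each library, the summits of control library 1 would hold 27.4 fragments for Nfe2l2, 15.8 for Bach1, 29.8 for Ddit3, 18.8 for Atf4 and 6.18 for Nqo1 in control library 2, where 27, 15, 25, 8 and 9 were found. For the genes not called there, the same scaling gives 5.37 for Keap1, 3.76 for Hmox1 and 4.03 for Chac1, near the smallest summit of that list, which held 3. In the HET libraries the scaled values are 28.1 and 27.3 for Bach1 and 10.9 and 10.6 for Nqo1. For Keap1 they are 9.51 and 9.24, for Hmox1 6.66 and 6.47, and for Chac1 7.14 and 6.93. All of these exceed the smallest summit of 4 in both lists. That value is not the threshold at each site, which depends on the local background. The scaled values are 48.5 and 47.1 for Nfe2l2, where 42 and 28 were found, and 33.3 and 32.4 for Atf4, where 21 and 25 were found. For Ddit3 they are 52.8 and 51.3, where 41 and 35 were found. This scaling, chosen after the data were seen, assumes the same share of fragments at a site in each library, and the part of depth in the missing calls was not tested. It also takes no account of fragment length. The smallest peak width was 145 and 143 bp in the control lists, 320 and 329 bp in the HET lists, and 205 and 229 bp in HSCs. The lowest background was 0.374 and 0.0991 in the control lists, 0.393 and 0.392 in the HET lists, and 0.697 and 0.310 in HSCs. Division by the larger smallest widths of the HET lists thus lowers the HET scaled values. By background alone, the summits of control library 1 would not be scaled down for the HET libraries. The implied depth rests on the lowest background and the smallest width, in lists of unlike length, so scaled and found values compare only roughly.

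Control LSCs and HSCs share the Nup214fl/+ genotype, and the comparison asked which sites leukemic and normal stem cells have in common. All 8 stress genes were called in more control than HSC libraries, as were 43.9% of all genes. Nfe2l2, Bach1, Atf4, Nqo1 and Ddit3 were called in 2 against 0 libraries (two-sided exact permutation p = 0.33, again the smallest possible) and the other 3 in 1 against 0 (exact permutation p = 1). Those 5 genes were called in both control libraries and neither HSC library, as were 20.3% of all genes. Neither HSC library held a peak in any of the 8 genes or within 50 kb of one, which was also so for 90.5% of all protein-coding genes. Without control library 1 the genes with more control calls were 5, against 21.9% of all genes. Scaled by implied depth, the Nfe2l2 summit of control library 1 would hold 134 and 53.5 fragments in HSC libraries 1 and 2, whose smallest listed summits held 6 and 5. Over the 8 genes the scaled values ran from 18.4 for Hmox1 to 146 for Ddit3 in HSC library 1. In HSC library 2 they ran from 7.35 for Hmox1 to 58.3 for Ddit3, with 7.87 for Chac1, 10.5 for Keap1 and 12.1 for Nqo1. The limits of the scaling given above hold here too.

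By strength the stress gene peaks lay near other gene-end peaks of their lists, given here as a description. The median percentile of fold over the stress genes called was 78.3 in control library 1, 74.0 in library 2, and 71.1 and 73.8 in the HET libraries. Over all genes with a gene-end peak in the same lists, each gene taken at its strongest, it was 75.2, 71.0, 68.5 and 68.8. In the order of control library 1, Bach1, Atf4 and Nfe2l2 stood highest by fold, at percentiles of 92.1, 91.9 and 86.9, and Chac1, Hmox1 and Keap1 lowest, at 63.4, 56.7 and 49.2. The 3 lowest are the genes called in that library alone, as were 18.9% of all genes.

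Base composition of the start windows varied among the genes. The GC content was 69.7% for Bach1, 68.7% for Nfe2l2, 61.3% for Chac1, 60.7% for Ddit3, 59.0% for Atf4, 53.7% for Nqo1 and 53.3% for Keap1. The median was 56.3% over 17492 protein-coding genes, 62.3% over genes called in both control libraries and 50.7% over genes called in neither. Nqo1 had the lowest CpG content of the 7 windows: its observed-to-expected ratio was 0.249, against a median of 0.815 in called genes and 0.286 in genes with no control call. Of the other genes called in both control libraries, Bach1 had 0.943, Atf4 0.844, Ddit3 0.797 and Nfe2l2 0.544. Keap1 and Chac1, called in control library 1 alone, had 0.610 and 0.604, so the ratio did not order the genes by their calls. Transposase cutting depends on open chromatin, which was not measured here.

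Within 50 kb of the 8 genes, gene-end peaks included, the LSC libraries held 42, 13, 9 and 11 peaks, in the order control libraries 1 and 2 and HET libraries 1 and 2. A peak in the gene or within 50 kb was found for 8 and 6 of the stress genes in the control libraries, against 76.0% and 60.3% of all genes, and for 6 and 7 in the HET libraries, against 41.9% and 37.1%. For the HSC libraries it was 0 and 0, against 7.36% and 3.52%. Inside the gene spans but away from the ends there were 4 in control library 1, in Nfe2l2 and Bach1, 1 in control library 2, in Nfe2l2, and 0 in the HET libraries. Of the outer peaks, 14 of 28 and 5 of 7 in the control libraries lay within 1 kb of an end of another protein-coding gene. In the HET libraries 5 of 6 and 6 of 8 did, so control library 2 was close to them. The matching shares over all genes, for these outer peaks and for the peaks inside gene spans, are not given here. The median number of peaks within 50 kb was 5 for the stress genes and 2 for all genes in control library 1, 1.5 and 1 in library 2, and 1 and 0 in each HET library.

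Some neighbouring genes had peaks where stress genes had none. Of 24 coding neighbours within 50 kb, 17 and 10 had a gene-end peak in the control libraries, against 43.3% and 21.9% of all genes. In the HET libraries 9 and 10 had one, against 11.5% and 9.49%. Others did not: Nfat5, nearer to Nqo1 than Wwp2, was called in control library 1 alone, and Pde4a beside Keap1 in no library. The genes below are a selection. Beside Hmox1, the start of Mcm5, a replication helicase gene, had a peak in control library 1 with a fold of 13.6, and in both HET libraries with folds of 5.84 and 4.06. Beside Keap1, the start of the autophagy protease gene Atg4d had one in the same 3 libraries, with folds of 19.5, 6.89 and 7.31, the first ranking 148 of 25437. A peak within 1 kb of both Kri1 and the cell cycle inhibitor gene Cdkn2d was in all 4 LSC libraries, with folds of 8.35 and 6.27 in the control libraries and 4.11 and 4.14 in the HET libraries. Beside Nqo1, the ubiquitin ligase gene Wwp2 had peaks in control library 1 (strongest fold 5.72) and in both HET libraries, with folds of 4.95 and 6.43, while Nob1, a ribosome assembly gene, had one in the control libraries alone, with folds of 9.91 and 5.47. Beside Atf4 the pattern was the other way round: the mitochondrial gene Mief1 had a peak in both control libraries, with folds of 16.5 and 9.67, and none in the HET libraries, where Atf4 itself was called. Next to Nfe2l2, Hnrnpa3, an RNA-binding protein gene, had a peak in all 4 LSC libraries, with folds of 11.5 and 8.94 in the control libraries and 5.52 and 5.58 in the HET libraries. A peak 26764 and 27070 bp before the Nfe2l2 start, near no annotated coding gene end, was found in control library 1 and HET library 1, with folds of 10.0 and 6.23. Another such peak, 32820 and 32681 bp before the start, was in control libraries 1 and 2 and in no HET library, with folds of 6.29 and 4.16. Control library 1 alone held one 11976 bp before the start, with a fold of 4.78.

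**Figure D3:**
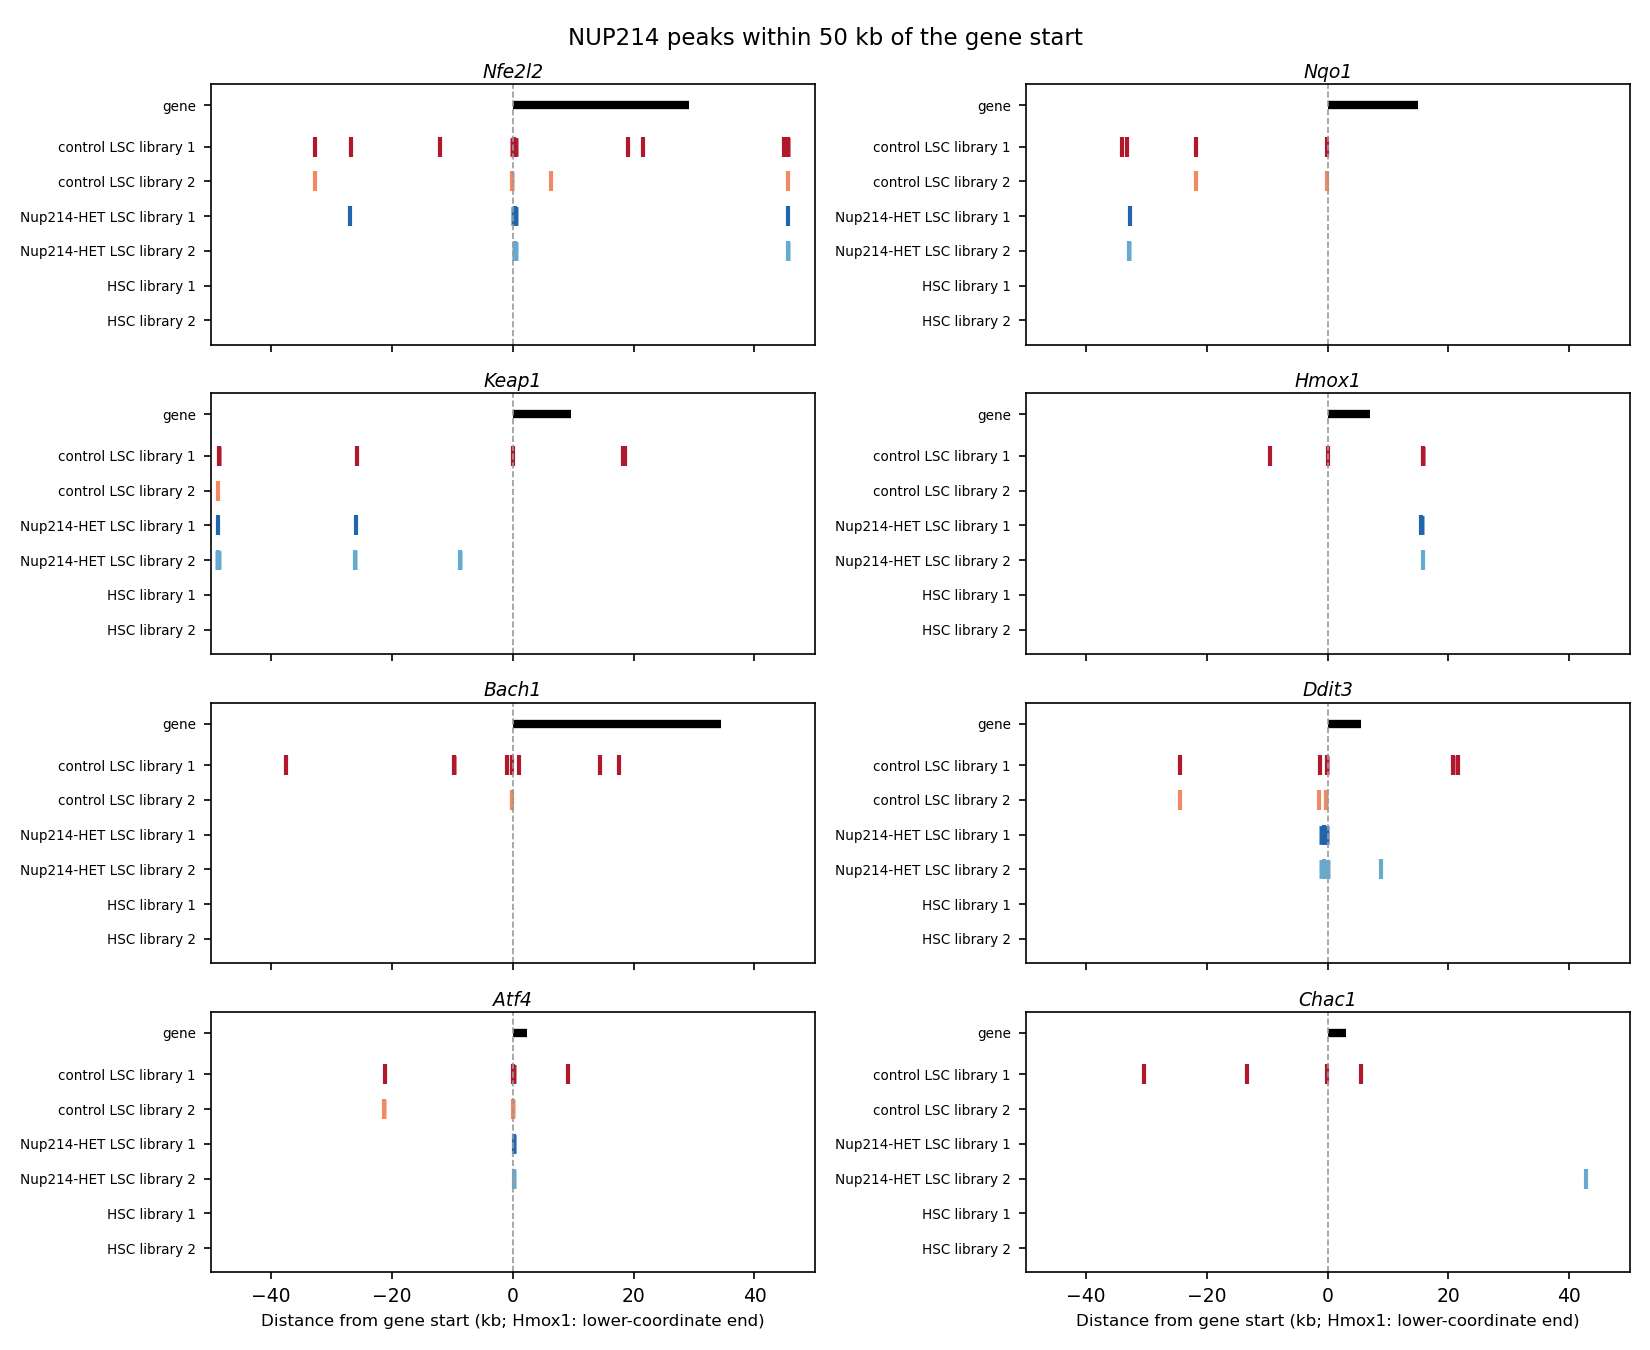
Peaks within 50 kb of the start of each stress gene, by library; the x axis is the distance from the gene start in kb along the direction of transcription (for Hmox1, from its lower-coordinate end along the chromosome), the black bar is the gene and each coloured mark is 1 peak. Both HSC rows are empty for all 8 genes, and at Keap1, Nqo1 and Hmox1 the HET marks lie away from the gene.

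The other genes of these pathways were counted from 4 lists, with 86 different genes in all. In both control libraries 40 of the 86 (46.5%) had a gene-end peak, and in both HET libraries 17 (19.8%), against 21.3% and 6.76% of all genes. NRF2 regulators and partners had 11 of 15 in the control libraries and 6 of 15 in the HET libraries, and the integrated stress response upstream of ATF4, the kinases and factors acting on eIF2, had 11 of 17 and 4 of 17. NRF2 targets had 8 of 24 and 2 of 24, and ATF4 targets and partners 10 of 31 and 5 of 31. No gene-end peak in any of the 6 libraries was found for 11 of the 24 NRF2 targets (45.8%), against 55.3% of all genes. The other lists had fewer: 2 of the 15 NRF2 regulators and partners, 0 of the 17 genes upstream of ATF4, and 6 of the 31 ATF4 targets and partners. Among the 11 NRF2 targets were Gclc, Slc7a11, Txnrd1 and Fth1, which encode a glutathione synthesis enzyme subunit, the cystine transporter, thioredoxin reductase and a ferritin chain. With each list cut to its strongest 634 peaks, 9 of the 86 were called in both control libraries, against 1.82% of all genes, and 2 in both HET libraries, against 1.72%.

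**Figure D4:**
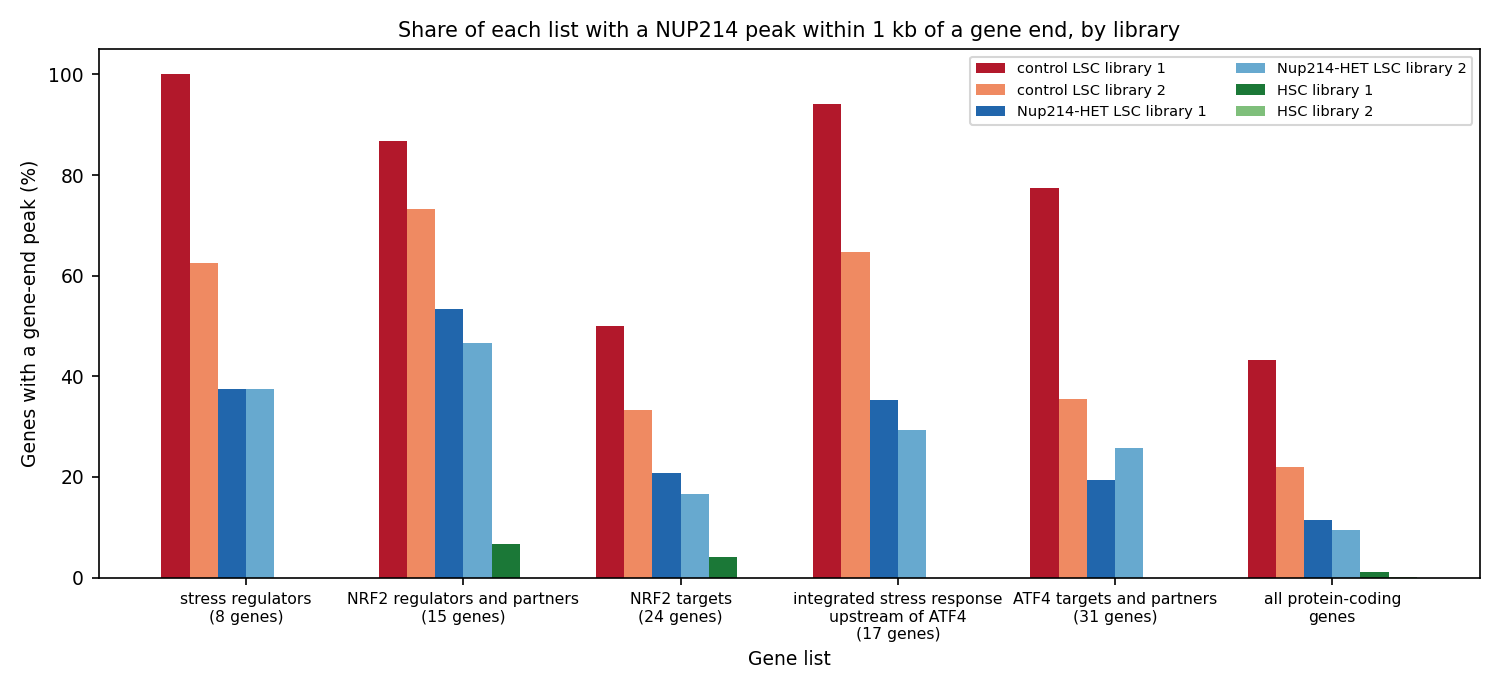
Share of each gene list with a NUP214 peak within 1 kb of a gene end (y axis, %), by library (colours), for the 8 stress regulators, the 4 pathway lists and all protein-coding genes (x axis); bars are single libraries and start at 0. Control library 1 has the highest share in each list, from 8 of 8 stress regulators to 43.3% of all protein-coding genes, and the HSC libraries the lowest.

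A gene-end peak in all 4 LSC libraries was found for 14 of the 86 genes, against 5.82% of all genes. On the NRF2 side these were Cul3 and Rbx1, the scaffold and RING subunits of the ligase that degrades NRF2, Sqstm1, whose product binds KEAP1, the kinase gene Gsk3b, the related factor genes Nfe2l1 and Nfe2, and the targets Txn1 (thioredoxin) and Ftl1 (ferritin light chain). Cul3 had the highest fold of the 14 in 3 of the 4 libraries, with folds of 21.7 and 15.2 in the control libraries, ranks 88 of 25437 and 139 of 10525, and 9.82 and 8.26 in the HET libraries, ranks 176 of 5452 and 349 of 4681. In HET library 2 the fold of Rbx1 was higher, at 9.68, rank 137 of 4681. KEAP1's partner in NRF2 degradation was thus called in 4 LSC libraries and Keap1 itself in 1. Gsk3b, with folds of 11.5 and 12.2 in the control libraries and 9.67 and 7.60 in the HET libraries, was also called in HSC library 1, with a fold of 6.62; the target Gsta4 was the only other gene of the 86 called there. Txn1 had folds of 16.4 and 12.6 in the control libraries and 4.93 and 3.53 in the HET libraries, where it ranked 2985 of 5452 and 4627 of 4681, close to the end of the second list.

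On the ATF4 side the genes with a peak in all 4 LSC libraries were Eif2s1, which encodes the eIF2 subunit that stress kinases phosphorylate, Eif2b4, a subunit of its exchange factor, Abcf1, Psph, an enzyme of serine synthesis, Slc3a2, a subunit of amino-acid transporters including that for cystine, and Cars, a cysteinyl-tRNA synthetase. Eif2s1 shares its peak with Atp6v1d, Eif2b4 with Snx17 and Psph with Cct6a. Eif2s1 had folds of 16.6 and 8.04 in the control libraries and 8.40 and 7.31 in the HET libraries. Slc3a2 had 15.2 and 8.66 in the control libraries and 7.83 and 4.28 in the HET libraries.

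For 16 of the 86 genes, both control libraries and neither HET library held a gene-end peak, against 10.8% of all genes. These are 16 of the 40 pathway genes called in both control libraries, against 50.7% of all genes called in both. By mean percentile of fold in the control lists the first 10 were Mafk, Gstm1, Eif2ak3, Mthfd2, Eif2s2, Slc7a5, Cth, Eif2b5, Prdx1 and Ppp1r15a. Mafk, which encodes a small MAF partner of NRF2 and BACH1, had folds of 12.9 and 15.8, ranks 2004 of 25437 and 116 of 10525, with 97 and 40 fragments at the summit. Eif2ak3, the gene of the stress kinase PERK, had folds of 12.8 and 10.8 with 42 and 16 fragments. Ppp1r15a, the gene of the phosphatase subunit GADD34 that reverses eIF2 phosphorylation, had 7.39 and 6.67 and shares its peak with Plekha4. Slc7a5, a large neutral amino-acid transporter, had 7.26 and 7.91. Gstm1 belongs to a cluster of similar genes, so its reads may be shared with its copies.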

How the data were processed

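NUP214 CUT&Tag was carried out per the labels' protocols on about 2000 to 5000 sorted cells with 17 to 20 PCR cycles. Per the submitters' processing notes, FastQC 0.11.5, Bowtie2 2.2.9, MACS2, ChIPseeker and the mm10 build were used; caller settings, duplicate handling and use of a control sample: not given in the sources used here. The authors called peaks per library. The deposited lists give for each peak a fold enrichment (a ratio over local background), a −log10 p, a −log10 q starting at 1.30 to 1.32, and a score. The deposited summit offset gave summit positions.

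Autosomal (1 to 19), X and Y peaks were set against 21887 RefSeq protein-coding genes (GRCm38.p6, the mm10 assembly). Only outermost gene ends were searched, and exons and introns were not told apart. Strands and starts came from the RefSeq promoter table. Summit fragments were recovered from fold and p by MACS2's known arithmetic, which no label states; 97.5% to 99.95% of peaks gave a whole number (relative tolerance 0.0001). The implied depth is the lowest background over the smallest peak width. Folds, taken as having 1 added to summit and background, and ranks describe peaks within a list.

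Groups were compared by an exact permutation test of calls. Alternatives were windows of 500 bp, 2 kb and 5 kb, a −log10 q of at least 2.64, lists cut to the shortest length, stricter overlap rules and leaving out each library. Python 3.11.15, pandas 2.3.3 and scipy 1.17.1 were used, and gene-end calling was tested on simulated data. The genes and lists were chosen with earlier results of these data known. All 8 genes are described; of the other pathway genes, the text describes or names those called in all 4 LSC libraries and, of those called in both control libraries and neither HET library, the 10 strongest. Genes named beyond this rule were chosen after their values were seen.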

Additional observations from a re-analysis of the deposited data

How the results depend on the processing

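Windows of 500 bp, 2 kb and 5 kb, a stricter q, the summit inside the window and at least 50% of the peak inside it each gave the main counts for the 8 stress genes: 5 called in both control libraries, 3 in both HET libraries, 0 in both HSC libraries and 2 in the control libraries alone. With lists cut to 634 peaks these were 1, 2, 0 and 0, against 1.82%, 1.72%, 0.0411% and 0.589% of all genes. Genes with more control than HET calls then numbered 0 (2.00% of all genes), and those with more control than HSC calls 2 (3.27%); the other pathway genes called numbered 9 in both control libraries and 2 in both HET libraries.

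Leaving out 1 library at a time gave 5 to 8 genes called in the control libraries (21.9% to 43.3% of all genes), 3 to 3 in the HET libraries (9.49% to 11.5%), 0 to 0 in HSCs (0.0868% to 1.04%) and 2 to 5 in the control libraries with none in the HET libraries (11.4% to 29.8%). Genes with more control calls ranged from 2 to 5 against the HET libraries (16.1% to 36.7% of all genes) and from 5 to 8 against HSCs (21.9% to 43.9%). With the replicate number as a block, the counts stayed at 5 and 8 and the smallest exact permutation p was 0.5. Same-numbered libraries did not deviate together over all genes (correlations 0.00201, −0.0428 and 0.00122), and no label pairs them.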
